A study of Mus musculus with 12 samples.

Results

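The 4 mouse alkaline phosphatase genes Akp3, Alpi, Alppl2 and Alpl were followed in the jejunum of wild-type and IAP knockout (IAP-KO, Akp3-/-) mice given the pentapeptide IIAEK or its vehicle. They were chosen by gene family: every array probe whose RefSeq accession maps to one of them was taken. This gave 5 probes, 2 for Akp3 and 1 for each of the others, of 56605 probes on the array, which stand for 46522 genes or unnamed features. The male mice were 7 weeks old at the start and formed 4 groups of 3, each mouse on its own array: both genotypes were given either vehicle or IIAEK. The vehicle, a solution of carboxymethylcellulose sodium salt at 5 g/L, was given to all 12 mice once a day by mouth for 14 days, and the IIAEK groups received 600 mg of the peptide per kg body weight in it. IIAEK, named by the one-letter code of its amino acids, is a peptide of bovine beta-lactoglobulin known for lowering cholesterol. Total RNA came from whole jejunum after 8 h of fasting, so fewer cells of a type and less RNA per cell cannot be told apart. The strain, the part of Akp3 that was deleted and whether wild-type mice were littermates were not given in the sources used here.

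Alkaline phosphatases are glycoproteins held on the outer face of the cell membrane by a GPI anchor, where they remove phosphate groups from nucleotides, bacterial lipopolysaccharide and other substrates. In the mouse, Akp3 encodes the intestinal form that is known from the duodenum, and Alpi encodes a second intestinal form with a wider range along the gut. Alppl2 encodes the embryonic form, and Alpl encodes the tissue-nonspecific enzyme of bone, liver and kidney, which is required for mineralisation. Intestinal alkaline phosphatase sits on the brush border of enterocytes, is released into the lumen and is known for detoxifying lipopolysaccharide and for its link to fat absorption.

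Alppl2, Alpi and Akp3 lie next to each other, in this order, among the protein-coding genes of chromosome 1, between Dis3l2 and Ecel1, whereas Alpl lies on chromosome 4. The sequences of the 250 bases before the start of the 3 clustered genes are shown because their transcripts varied together across mice, as described further on. They are from RefSeq on GRCm38.p6, with Akp3 at chr1:87124704-87124953 on the plus strand, Alpi at chr1:87101607-87101856 and Alppl2 at chr1:87089929-87090178. The table behind them gives the last pair on the minus strand. Capitals mark every run of at least 9 bases that all 3 sequences share exactly.
Akp3: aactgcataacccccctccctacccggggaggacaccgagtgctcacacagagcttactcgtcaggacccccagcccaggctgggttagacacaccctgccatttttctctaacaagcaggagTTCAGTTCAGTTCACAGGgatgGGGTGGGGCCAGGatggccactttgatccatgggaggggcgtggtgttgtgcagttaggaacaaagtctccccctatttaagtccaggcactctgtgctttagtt
Alpi: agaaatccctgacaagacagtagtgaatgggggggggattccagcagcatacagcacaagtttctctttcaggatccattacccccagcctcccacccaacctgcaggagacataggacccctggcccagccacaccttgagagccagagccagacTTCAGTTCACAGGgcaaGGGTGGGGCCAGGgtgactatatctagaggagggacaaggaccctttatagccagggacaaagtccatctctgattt
Alppl2: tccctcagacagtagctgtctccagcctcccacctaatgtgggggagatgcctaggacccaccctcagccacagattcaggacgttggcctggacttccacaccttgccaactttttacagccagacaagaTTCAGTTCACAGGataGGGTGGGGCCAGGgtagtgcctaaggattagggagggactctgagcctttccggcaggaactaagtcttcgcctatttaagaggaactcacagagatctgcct

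The 3 promoters share a pair of runs of 13 bases, TTCAGTTCACAGG followed a few bases later by GGGTGGGGCCAGG. In Akp3 the first run sits at the end of an 18-base run in which its leading bases are repeated. The second run begins 105 bases before the start in Akp3, 77 bases before it in Alpi and 103 bases before it in Alppl2. Searched on both strands of 32851 RefSeq promoters of 300 bases (250 before to 50 after a start), TTCAGTTCACAGG occurs in 0.0304% and GGGTGGGGCCAGG in 0.0487%, and the promoters with both belong to Akp3, Alpi and Alppl2. Neither is in the 2 listed promoters of Alpl. Both runs were picked as shared by the promoters of the 3 clustered genes, which are among those searched. Their presence in these 3 was therefore fixed in advance. GGGTGGGGCCAGG contains CACCC on its reverse strand, the core of the sites of KLF factors, which occurs in 57.5% of all promoters and in every one of the members'. TTTAT, bound by caudal-type factors and found in 40.0% of promoters, is present 33 bases before the start of Alpi and 192 bases before one start of Alpl, where it overlaps TATAAA on the opposite strand (13.6% of promoters). The zinc-finger factor motif AGATAA, found in 11.2% of promoters, is in none of the members' windows. These matches are letters in a window and were tested neither for binding nor for a part in the shared variation of the transcripts.

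The arrays were alike in quality, with a 75th percentile of the processed signal of 575 to 816, 59.99% to 67.1% of spots well above background and no saturated spot. All levels below are log2 signals minus the log2 of that percentile, so that 0 is a bright probe, and levels are compared between mice for 1 probe, never between probes. Marker genes of the small intestine were detected, with all 10 enterocyte markers well above background on all 12 arrays. Of the Brunner gland and stomach markers, Gkn1 and Gkn2 were on none, Tff2 on 7, Muc5ac on 3 and Tff1 on 2. Their signals, in multiples of the 75th percentile, added up to 8.85 in wild-type IIAEK replicate 3 and 0.035 to 0.316 on the other arrays. The ileal hormone gene Fgf15 was on none, whereas 7 of the 8 distal markers were on all 12. Genes of the exocrine pancreas stood out on 2 arrays, with a summed signal (in multiples of the 75th percentile) of 2955 in wild-type IIAEK replicate 3 and 242.2 in knockout vehicle replicate 3, against 22.6 to 49.9 on the others. Results are therefore also given without both arrays. The arrays lay on 2 slides: slide 1 held replicate 1 of each wild-type group and replicates 1 and 2 of each knockout group, and slide 2 held the rest.

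Akp3, the targeted gene, was measured first. In wild-type vehicle mice the level of its brighter probe was -3.81, -4.43 and -6.42 in replicates 1, 2 and 3, the last below background. In wild-type IIAEK mice it was -4.39, -1.61 and -1.74. In knockout vehicle mice it was -7.32, -5.96 and -6.44, and in knockout IIAEK mice -6.41, -7.33 and -7.19. All 6 knockout arrays thus lay below background, and wild-type IIAEK replicates 2 and 3 stood above every other mouse. In linear terms these 2 mice gave processed signals of 267 and 228, while the remaining 3 wild-type mice above background gave 31.7 to 45.5.

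The second Akp3 probe was highest in the same 2 mice. It was above background on wild-type IIAEK replicates 2 and 3 alone, at levels of -2.29 and -2.14. It read -5.55, -5.91 and -7.66 in wild-type vehicle mice, -6.08 in wild-type IIAEK replicate 1 and -6.86 to -7.88 in the knockout. Where either probe lies relative to the deleted part of the gene was not given in the sources used here, so the low knockout signal need not measure the whole transcript. The probes did not pick up the Alpi transcript to a visible degree, since they stayed at background on knockout arrays where the Alpi probe gave signals of 11180 and more. Reading of one family member by another's probe was otherwise not tested.

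Against background, a difference is only a bound. It is given as "at least": the mean of the brighter group over the mean, per array, of the higher of the dimmest signal that counts as well above background and the probe's own signal. On IIAEK, Akp3 was at least 7.71-fold lower in the knockout by the brighter probe. By the other probe the value was 4.06-fold, which is no strict bound. There wild-type IIAEK replicate 1 was below background and entered the mean as measured. On vehicle the other probe was below background in both genotypes. The value of the brighter probe was 1.28-fold, with overlap between genotypes, and is no strict bound either. For it wild-type vehicle replicate 3 was below background and entered the mean as measured. Over both treatments, with that replicate again as measured, the value was 3.14-fold (measured log2 difference -3.04, SE 0.55, limma adjusted p = 0.222). Without wild-type IIAEK replicate 1 this difference was -3.50 with an adjusted p of 0.0343. With normexp background correction, run on spot medians and adding an offset of 50 to every signal, it was -0.87. Adjusted p-values over all alternatives lay between 0.0343 and 0.642. Within slides the difference was -2.66 and -3.26.

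Within wild type, Akp3 was higher on IIAEK by 2.31 on the log2 scale (SE 0.78, limma adjusted p = 0.369), with means of -2.58 ± 1.57 (SD, n = 3) on IIAEK and -4.89 ± 1.36 on vehicle, which missed the threshold. The groups overlapped, because replicate 1 on IIAEK lay below replicate 1 on vehicle. By slide, the pair on slide 1 differed by -0.58 and the mice on slide 2 by 3.75, so the direction was not shared. In the knockout both groups were below background and no difference is given.

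**Figure D1:**
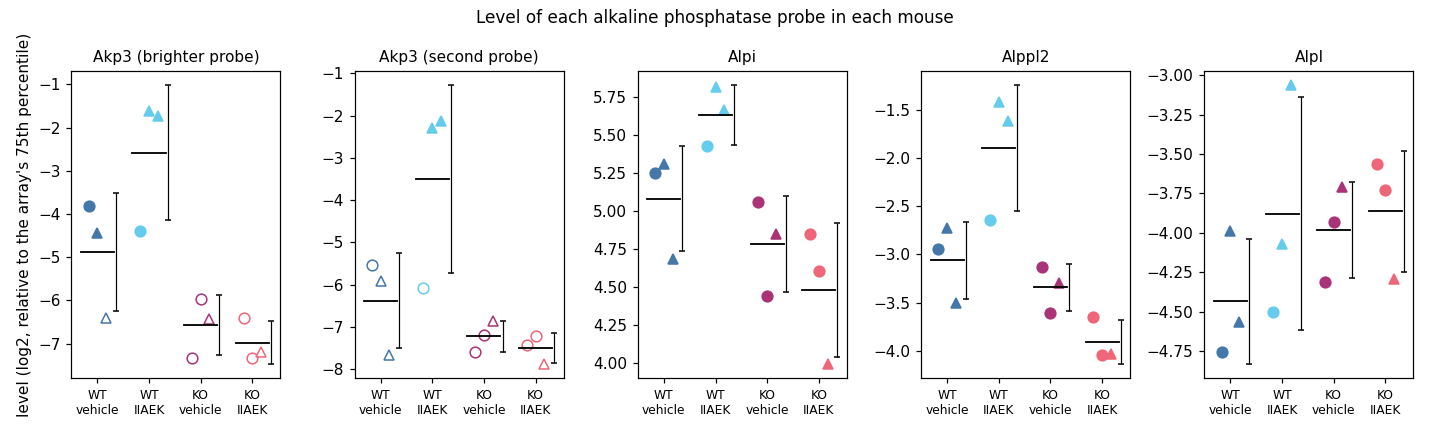
Level of each probe (y axis, log2 relative to the array's 75th percentile) in each mouse by group (x axis). Circles are slide 1, triangles slide 2, open symbols are not well above background, horizontal lines are group means and error bars are 1 SD (n = 3). Both Akp3 probes, Alpi and Alppl2 have wild-type IIAEK replicates 2 and 3 at the top, and the 6 knockout arrays are open for Akp3. The y axes differ between panels.

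Alpi, the wider-ranging intestinal form, was well above background in all 12 mice and lay above the 75th percentile of every array. Wild-type mice on vehicle had Alpi levels of 5.25, 5.31 and 4.68, and those on IIAEK 5.42, 5.81 and 5.66. In the knockout it was 5.06, 4.44 and 4.85 on vehicle and 4.84, 4.61 and 3.99 on IIAEK. The means descended in the order wild type on IIAEK (5.63 ± 0.20, SD, n = 3), wild type on vehicle (5.08 ± 0.35), knockout on vehicle (4.78 ± 0.31) and knockout on IIAEK (4.48 ± 0.44). In this order wild type on IIAEK did not overlap wild type on vehicle, while each later pair of neighbours did overlap. Transcript of an intestinal alkaline phosphatase was therefore present in every knockout mouse.

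On IIAEK, every knockout mouse had less Alpi than every wild-type mouse, a difference of -1.15 (SE 0.25, limma adjusted p = 0.611). On vehicle the genotypes overlapped, at -0.30 (SE 0.25, 95% interval -0.86 to 0.25). Over both treatments the difference was -0.73 (SE 0.18, limma adjusted p = 0.514), and none of the alternatives moved it by over 1.5 times. IIAEK differed from vehicle by 0.55 (SE 0.25, adjusted p = 0.384) in wild type and by -0.30 (SE 0.25, adjusted p = 0.910) in the knockout. Within slide 1 the difference in wild type was 0.17, and without wild-type vehicle replicate 3 it was 0.35. On IIAEK, the genotype difference in Alpi was -0.70 within slide 1 and -1.75 within slide 2.

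Alppl2, the embryonic form, was dimmer but also well above background in all 12 mice. Wild-type mice on vehicle had Alppl2 levels of -2.94, -2.73 and -3.50, and those on IIAEK -2.64, -1.42 and -1.62. In the knockout it was -3.13, -3.60 and -3.29 on vehicle and -3.64, -4.05 and -4.03 on IIAEK. The order of the group means was that of Alpi, from -1.89 ± 0.65 (SD, n = 3) in wild type on IIAEK through -3.06 ± 0.40 in wild type on vehicle and -3.34 ± 0.24 in knockout on vehicle to -3.91 ± 0.23 in knockout on IIAEK. The IIAEK groups stood apart from the vehicle groups in both genotypes, above in wild type and below in the knockout, although in the knockout the nearest mice were only -3.60 and -3.64.

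The difference between genotypes in Alppl2 on IIAEK was -2.02 (SE 0.30, limma adjusted p = 0.235). Without wild-type IIAEK replicate 1, the one mouse of its group that lay near the vehicle mice, it was -2.39 with an adjusted p of 0.0216, in a range over alternatives of 0.0216 to 0.999. It was -1.21 within slide 1, -2.52 within slide 2 and -1.23 with normexp correction. On vehicle the genotypes overlapped, at -0.28 (SE 0.30, 95% interval -0.95 to 0.39).

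Over both treatments Alppl2 differed between genotypes by -1.15 on the log2 scale (SE 0.22, limma adjusted p = 0.245). Without wild-type IIAEK replicate 1 the difference was -1.34 (adjusted p = 0.0343, within a range of 0.0343 to 0.643), and with normexp correction it was -0.68. IIAEK differed from vehicle by 1.17 (SE 0.30, adjusted p = 0.369) in wild type, with 0.31 within slide 1 and 1.60 within slide 2, and by -0.57 (SE 0.30, adjusted p = 0.910) in the knockout. The interaction of IIAEK and genotype was -1.74 (SE 0.43, limma adjusted p = 0.311). It was -0.79 within slide 1, -2.34 within slide 2 and -1.10 with normexp correction.

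Alpl, the tissue-nonspecific form, showed no such order. Levels of Alpl were -4.75, -3.99 and -4.56 in wild-type mice on vehicle, -4.50, -4.07 and -3.06 in wild-type IIAEK mice, -4.31, -3.93 and -3.71 in knockout vehicle mice and -3.57, -3.73 and -4.30 in knockout IIAEK mice. The group means were -4.44 ± 0.40, -3.88 ± 0.74, -3.98 ± 0.31 and -3.86 ± 0.38 (SD, n = 3), and every pair of groups overlapped. The highest value belonged to wild-type IIAEK replicate 3, the array with the most pancreatic signal.

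Over both treatments the genotypes differed in Alpl by 0.23 (SE 0.25, limma 95% interval -0.31 to 0.77, adjusted p = 0.982). That interval excludes a fall of the size measured for Alppl2 or Alpi. The difference was 0.74 within slide 1 and -0.08 within slide 2, so it had no shared direction. IIAEK differed from vehicle by 0.56 (SE 0.35, adjusted p = 0.452) in wild type, which became 0.15 without wild-type IIAEK replicate 3, and by 0.12 (SE 0.35) in the knockout, a value that changed sign when single mice were left out. The genotype difference on IIAEK was 0.013 and also had no stable sign.

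**Figure D2:**
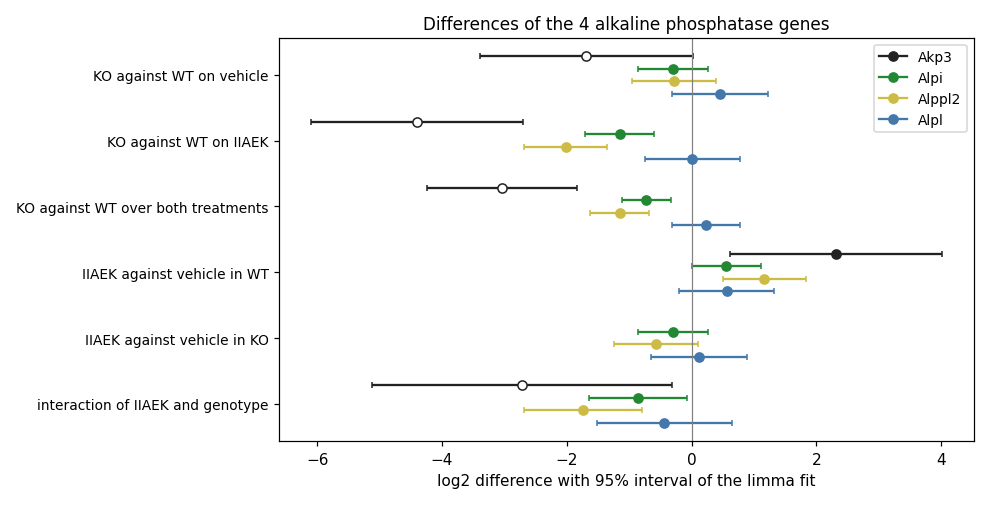
Log2 difference (x axis) with its 95% interval from the limma fit for each gene and comparison (y axis). Open points are Akp3 differences that rest on groups below background and are not bounds, and Akp3 is left out for IIAEK in the knockout, where both groups were below background. Akp3, Alpi and Alppl2 lie below 0 in the knockout on IIAEK (-4.40, -1.15 and -2.02) and Alpl at 0.013.

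As a family, no member passed the threshold of 0.05 in any of the 6 comparisons once p-values were adjusted over 27565 genes by the Benjamini-Hochberg method in limma. The share of all genes called was 0% in 5 comparisons and 0.00363% between genotypes over both treatments, where the 1 gene called was Glrp1 (-2.29, SE 0.22, adjusted p = 0.00885), named here after its value was seen. In the knockout on IIAEK, 3 of the 4 members had an unadjusted p under 0.05 and a lower level, against 3.32% of all genes, and the same 3 did not overlap between genotypes, against 3.87%. On vehicle the counts were 0 by p and 0 by overlap, against 11.4% and 23.7% of genes in either direction. Over both treatments 3 of 4 were lower by unadjusted p (2.7% of genes) and none was without overlap (0.359%).

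For IIAEK in wild type, 2 of the 4 were higher by unadjusted p (Akp3 and Alppl2, against 5.85% of genes) and 2 did not overlap (Alpi and Alppl2, against 10.6%). In the knockout none had an unadjusted p under 0.05 (4.42% of genes) and Alppl2 alone was lower without overlap (3.5%). For the interaction, which for Akp3 would rest on a knockout difference below background, 2 of the 3 other members (Alpi and Alppl2) were below 0 by unadjusted p, against 6.12% of genes. Without Akp3, the 3 other members gave 2 by unadjusted p between genotypes on IIAEK, 2 over both treatments and 1 for IIAEK in wild type. Akp3 entered the test only through the wild-type IIAEK group, the one group in which its probe was above background on every array.

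The median difference of the 4 members between genotypes was -0.29 on vehicle and -1.59 on IIAEK, and -0.28 and -1.15 without Akp3. The medians of all genes were -0.03 and 0.02. For IIAEK in wild type the members' median was 0.86, or 0.56 without Akp3, against -0.06 for all genes. In the knockout, where Akp3 has no measured difference, the median of the 3 other members was -0.30, against 0.01. These comparisons share groups, so their values are set side by side only. The low median in the knockout on IIAEK and the high one in wild type on IIAEK both draw on the same 3 wild-type IIAEK mice.

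An exact permutation test of each member, with genotype labels exchanged within each treatment (400 arrangements, two-sided, smallest possible p 0.005), gave p = 0.01 for Akp3 with its signals below background taken as measured, 0.015 for Alpi, 0.02 for Alppl2 and 0.41 for Alpl. These are the p-values of single genes that were chosen with results known, and they are not adjusted. The same test on normexp values gave 0.02 for Akp3, 0.015 for Alpi, 0.025 for Alppl2 and 0.56 for Alpl. By either the test over all genes or this one, Alpl did not pass.

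The levels of Alpi and Alppl2 moved together from mouse to mouse. Over the 12 mice Pearson's r was 0.92 (permutation p = 2e-05, the smallest that the resamples can give, adjusted p = 6e-05 over 3 pairs of members) and Spearman's rho was 0.95. Without wild-type IIAEK replicate 2 and knockout IIAEK replicate 3, the farthest from the median of Alpi, r was 0.92. It was 0.90 on slide 1 and 0.96 on slide 2, 0.94 in wild type and 0.77 in the knockout. After the group means were taken out it was 0.73, so part of the relation lay within groups. The permutations exchanged mice across groups and slides, so their p-value covers differences between groups as well.

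Alpl did not share this pattern. Its r with Alpi was 0.13 (permutation p = 0.687, rho -0.021) and with Alppl2 0.20 (permutation p = 0.54, rho -0.14). Within slides the signs differed, at -0.78 and 0.55 with Alpi and -0.87 and 0.59 with Alppl2. Without wild-type IIAEK replicates 2 and 3 the r of Alppl2 and Alpl was -0.42, so its positive sign rested on those mice.

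By mean log2 deviation, regional markers of the gut moved with the same mice. Of 14 marker genes of the proximal small intestine (among them Pdx1, Gata4, Cybrd1, Slc40a1 and Lct), 12 were above background on all arrays, and 7 of the 8 distal markers were (among them Slc10a2, Fabp6 and Slc51a). The mean log2 deviation of the proximal list from its average over arrays was highest in wild-type IIAEK replicates 3 and 2, at 0.30 and 0.27. It was lowest in knockout IIAEK replicate 3 and wild-type vehicle replicate 3, at -0.57 and -0.27, the mice with the least Alpi in their groups. The distal list was lowest in wild-type IIAEK replicates 2 and 3, at -0.53 and -0.67, against -0.18 to 0.38 in the other mice. By summed signal the proximal list was not highest in these mice, at 891.1 in replicate 2 and 846.4 in replicate 3. The proximal sum was 893 to 969 in wild type on vehicle, 957.6 to 1018 in knockout on vehicle and 692.1 to 981.1 in knockout on IIAEK. The distal sum was again lowest in wild-type IIAEK replicates 2 and 3, at 31.75 and 26.91.

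Across the 12 mice the proximal deviation correlated with the level of Alpi (r = 0.82, permutation p = 0.00067, adjusted p = 0.00402 over 6 pairs, rho 0.63 with adjusted p = 0.103). With Alppl2, r was 0.74 (permutation p = 0.00719, adjusted p = 0.0216, rho 0.62 with adjusted p = 0.103). On slide 1 these were 0.25 and 0.51, and on slide 2 0.99 and 0.95. Without wild-type vehicle replicate 3 and knockout IIAEK replicate 3, r was 0.71 for Alpi and 0.84 for Alppl2. The distal list correlated with Alppl2 at -0.68 (permutation p = 0.0163, adjusted p = 0.0327), a relation that rested on wild-type IIAEK replicates 2 and 3, without which it was 0.18. Alpl had r = 0.39 with the proximal list (permutation p = 0.214). Correlations with the summed signal of the lists, or with group means taken out, were not computed. The permutations exchanged mice across groups and slides, so their p-values do not separate relations within groups from differences between groups. How far the position of the sampled segment enters the differences between groups was not tested.

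**Figure D3:**
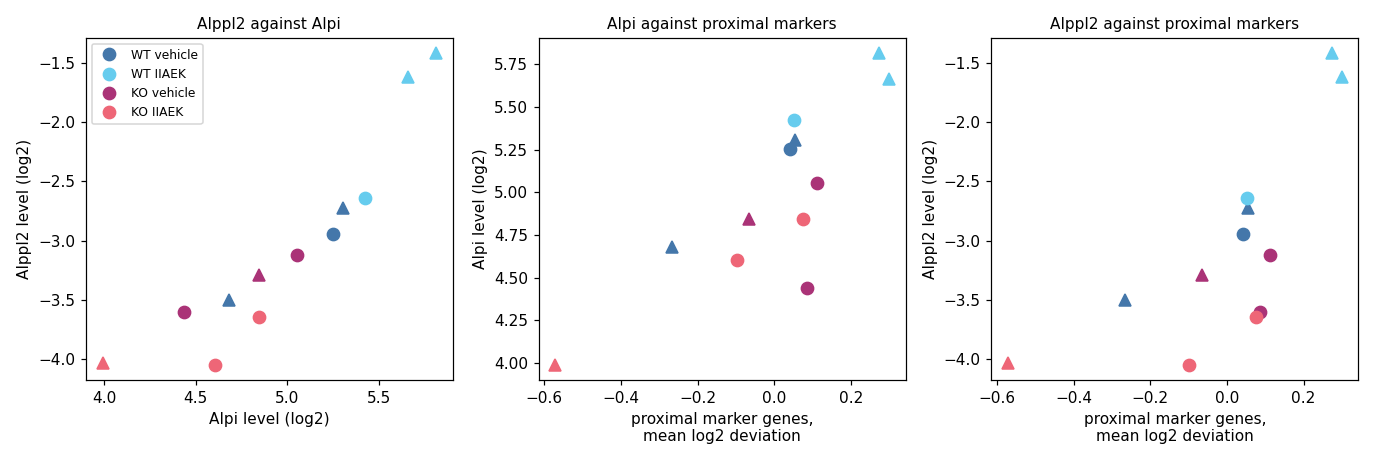
Each point is 1 mouse, coloured by group, with circles for slide 1 and triangles for slide 2. The left panel plots the level of Alppl2 against that of Alpi (both log2), and the other panels plot Alpi and Alppl2 against the mean log2 deviation of 14 proximal marker genes. Alpi and Alppl2 rise together (r = 0.92), and wild-type IIAEK replicates 2 and 3 lie at the upper right of every panel.

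Other cell types also differed beside these results. The summed signal of 10 enterocyte markers, which include Alpi, was 2491 to 2677 in wild type on vehicle, 1971 to 2339 in wild type on IIAEK, 2262 to 2562 in knockout on vehicle and 2327 to 2462 in knockout on IIAEK. Alpi was thus highest in the group with the lowest enterocyte sum. The sum of 10 smooth muscle markers was 64.6 to 105.3, 117.3 to 189.5, 113.1 to 143.4 and 104.9 to 166.3 in the same order of groups. Pancreatic genes, all 14 detected and 12 on every array, summed to 22.9 to 49.9, 27.8 to 2955, 22.6 to 242.2 and 27.2 to 31.7.

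Without the 2 pancreas-rich arrays, a check chosen after these values were seen, the genotype difference over both treatments was -1.09 for Alppl2 and -0.74 for Alpi, against -1.15 and -0.73 with all arrays. For Alpl the interaction turned from -0.44 to 0.11. No member was called without these arrays. The part of enterocyte and muscle content in the results was not tested.

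By likeness across mice, with differences between groups included, the clustered members ranked among each other's nearest genes, save Akp3 in the list of Alpi. Of 14669 named genes compared over the 12 arrays by Pearson's r, the nearest to Akp3 were Alppl2 (0.93), D2hgdh (0.85), Zbtb34 (0.85), Alpi (0.84) and Tnfsf13b (0.84). The nearest to Alpi were Alppl2 (0.92), Itm2c (0.91), Lrrc20 (0.90), Dnajb2 (0.89) and Grk5 (0.89). The nearest to Alppl2 were Tnfsf13b (0.95), Akp3 (0.93), Alpi (0.92), D2hgdh (0.87) and Ddx46 (0.87). D2hgdh, Itm2c and Dnajb2 lie on chromosome 1, like the alkaline phosphatase cluster, as do 5.74% of the genes compared. For Alpl the list was Arhgdig (0.91), Spout1 (0.89), Brf2 (0.89), Hspa12b (0.89) and H1f3 (0.88), with no other family member. All 5 were highest in wild-type IIAEK replicate 3, the array with the most pancreatic signal, where Alpl was highest too. Akp3 was above background on 5 of the 12 arrays, and its levels below background entered these values as measured. After the group means were taken out, Akp3 had r = 0.77 with Alppl2, 0.53 with D2hgdh and 0.44 with Alpi. Alppl2 then had 0.95 with Tnfsf13b, 0.73 with Alpi and 0.55 with D2hgdh. With group differences included, r over 0.5 was found for 6.37% of the compared genes with Akp3, 11.26% with Alpi, 9.44% with Alppl2 and 17% with Alpl.

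The nearest genes on either side of the cluster and others in its neighbourhood were read as well. Over both treatments, Dis3l2 beside Alppl2 differed between genotypes by 0.18 (SE 0.16) and Ecel1 beside Akp3 by -0.10 (SE 0.18). Of 14 genes in the neighbourhood 9 were tested, none passed and 2 were lower by unadjusted p, against 2.7% of all genes. These were Ngef, a guanine nucleotide exchange factor (-0.46, SE 0.11, limma adjusted p = 0.488), and Eif4e2, a cap-binding protein (-0.46, SE 0.15, adjusted p = 0.747). The 6 wild-type Ngef levels, 2.36 to 2.62, did not overlap the 6 knockout levels, 1.83 to 2.32, a state found in 0.359% of all genes, whereas the genotypes overlapped for each alkaline phosphatase over both treatments.

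Other genes of the same physiology were read from lists of the pathway. Of 21 tested brush border enzymes and structural genes, none passed the limma threshold in any comparison. In contrast to the 3 clustered alkaline phosphatases, 16 of them lay below 0 on IIAEK in wild type and 5 above (42.95% of all genes above). Their median was -0.41 (all genes -0.06). In the knockout on IIAEK 17 lay above 0 (53.01% of all genes), with a median of 0.29 (all genes 0.02). In the knockout on vehicle 8 lay above 0 (median -0.08), against 45.51% of all genes. Over both treatments 13 did (median 0.08), against 48.75%, and for IIAEK in the knockout 11 (median 0.06), against 51.09%. The smallest p over both treatments belonged to the disaccharidases Mgam (0.21, SE 0.12, adjusted p = 0.963) and Lct (0.31, SE 0.18, adjusted p = 0.967).

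Of 13 genes of luminal nucleotide hydrolysis, whose enzymes act on the same kind of substrate, none passed and 10 were below 0 in the knockout on IIAEK (median -0.17), 7 on vehicle (median -0.09) and 8 over both treatments (median -0.14). Ada, adenosine deaminase, differed by -0.91 over both treatments (SE 0.31, limma adjusted p = 0.790) with overlap between genotypes, and Entpd5, a nucleoside diphosphatase, by -0.30 (SE 0.13, adjusted p = 0.922). Of 17 regulators of intestinal differentiation none passed, and Hnf4a differed by -0.25 (SE 0.12, adjusted p = 0.926). Of 27 tested genes of GPI anchor synthesis, on which all 4 enzymes depend, none passed. Piga, of the first step, differed by -0.39 (SE 0.13, adjusted p = 0.804) and Pign by -0.29 (SE 0.12, adjusted p = 0.901).

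The remaining lists concern known substrates and effects of the intestinal enzyme. Of 18 tested genes of endotoxin sensing none passed. Tnfaip3, an inhibitor of NF-kappaB signalling, differed by -0.36 (SE 0.12, limma adjusted p = 0.799) and the kinase Irak4 by -0.27 (SE 0.11, adjusted p = 0.893). Of 13 genes of phosphate and mineral handling none passed, with the calcium pump Atp2b1 at -0.22 (SE 0.091, adjusted p = 0.891) and the phosphatase Phospho1 at 0.35 (SE 0.20, adjusted p = 0.966). Of 17 genes of fat absorption none passed. Apoa1 differed by 0.17 (SE 0.14, adjusted p = 0.980) and Plin3 by -0.12 (SE 0.12, adjusted p = 0.980). In the knockout against wild type, 16 of the 17 lay below 0 on vehicle (median -0.15, all genes -0.03), 7 on IIAEK (median 0.04, all genes 0.02) and 10 over both treatments (median -0.04, all genes -0.0044).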

How the data were processed

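The authors deposited 1 scanner file per array (Cy3, Agilent Feature Extraction 10.7.3.1 per the file headers) with the processed signal, a background-subtracted intensity. They also deposited a value table in log2 units whose scaling is not given in the sources used here. Its columns correlated at r of at least 0.9997 with the levels used here minus each probe's median over the arrays. Non-uniform spots were removed, spots of a probe were averaged as log2, and each array was scaled to its 75th percentile. The brightest of a gene's probes was used. The filter kept genes detected above background in all 3 mice of at least 1 group, 27565 in all (15812 named, by RefSeq symbols). The 4 group means were fitted over 12 arrays with limma 3.58.1 in R 4.3.3 (8 residual and 3.37 prior degrees of freedom), with Benjamini-Hochberg adjustment; the fit was tested on simulated data. With 3 arrays per group, their number limits the precision. Exact tests and correlations were computed in Python 3.11.15. Named genes were the members, the 5 genes most like each, and the 2 of smallest p per list; 1 gene that this rule takes is not reported here. The members and lists were chosen with earlier results of these data known. Alternatives were another scaling, background correction, filter, probe rule, slide block, replicate block and each array left out. Mice were not treated as paired by number in the main fit. Same-numbered arrays' deviations correlated at -0.25 to 0.35 (median 0.066), and 8 of 18 pairs exceeded 0.1. Differently numbered arrays' deviations correlated at -0.40 to 0.38 (median -0.0048), and 10 of 36 pairs exceeded 0.1. A source label gives the IIAEK treatment as 14 weeks, whereas titles and protocol give 14 days, used here.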

Additional observations from a re-analysis of the deposited data

Results flagged for a closer look

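For Alppl2, every wild-type mouse on IIAEK lay above the vehicle mice's mean and every knockout mouse below it. Relative to the vehicle mean of their genotype, the 3 wild-type IIAEK mice lay at 0.42, 1.64 and 1.44 on the log2 scale, and the 3 knockout IIAEK mice at -0.30, -0.71 and -0.69. The difference between the responses was -1.74 (SE 0.43), which missed the threshold over all genes (limma interaction adjusted p = 0.311). For Alpi the wild-type mice lay at 0.34, 0.73 and 0.58 and the knockout mice at 0.064, -0.17 and -0.79, so the knockout mice did not share a direction.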

How the results depend on the processing

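Of the counts of members called, 4 changed, each without wild-type IIAEK replicate 1: to 1 between genotypes on IIAEK (Alppl2; 1 without Akp3) and to 2 over both treatments (Akp3 and Alppl2; 1 without Akp3). Leaving out other replicates gave 0. Within a slide each group had only 1 or 2 arrays. Between genotypes on IIAEK, members' medians moved to -0.95 within slide 1 and -2.13 within slide 2 (-0.70 and -1.75 without Akp3). For the interaction they moved to 0.013 and -1.97 (-0.19 and -1.60 without Akp3, whose knockout signals were below background). The median for IIAEK in wild type was 0.21 within slide 1, and for IIAEK in the knockout without Akp3 -0.74 within slide 2. Alpl reversed between genotypes on IIAEK (-0.020 with quantile scaling, -0.30 to 0.42 without single mice), for IIAEK in the knockout (-0.046 to 0.33 without single mice) and for the interaction without the pancreas-rich arrays (0.11). The correlation of Alpi and Alppl2 was 0.73 as deviations from group means, that of Alpi and Alpl -0.78 and 0.55 within slides, and that of Alppl2 and Alpl 0.50 as deviations, -0.87 and 0.59 within slides and -0.42 without the farthest arrays. The cause of these changes was not tested. With the replicate block no member was called, and the Alppl2 difference on IIAEK had an adjusted p of 0.377. Counts of all genes called between genotypes over both treatments ranged from 0 to 10 against 1, at 4 when wild-type vehicle replicate 3 was left out, 8 for wild-type IIAEK replicate 1 and 10 for knockout vehicle replicate 1. A fit of only the groups compared called 14 genes for IIAEK in the knockout and 4 between genotypes on IIAEK, against 0 each.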
